A study of Nicotiana tabacum with 6 samples.

Results

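Expression of 7 tobacco genes for flavonoid enzymes that act after chalcone synthase was examined in seeds and seedlings that overexpress a sunflower heat stress factor. The genes were chosen by identifier from their protein descriptions: 2 of chalcone isomerase, 1 of flavanone 3-hydroxylase, 2 of flavonol synthase, 1 described as like dihydroflavonol-4-reductase (DFR) and 1 of leucoanthocyanidin dioxygenase (LDOX, also called anthocyanidin synthase). They are 7 of the 31764 genes listed in the deposited tables. The plants were *Nicotiana tabacum* var. Xanthi, and 6 RNA-seq libraries formed 3 comparisons, each of transgenic lines (T) with their nontransgenic siblings (NT). DS10:A9 seeds carry sunflower HaHSFA9 (A9) under DS10, a promoter active in seeds, and were compared with NT seeds. 35S:A9 seedlings carry A9 under the 35S promoter, which is active in most organs, and were compared with NT seedlings. DS10:A4a seeds carry sunflower HaHSFA4a (A4a) under DS10 and were compared with a separate NT seed library. Mature seeds had been imbibed for 1 day in the dark, and all seeds, NT seeds included, hold the tobacco plant's own A9. Seedlings were 3 weeks old. The transgenic lines have single insertions at different places in the genome. RNA from sibling line pairs was pooled, with 4 RNA samples mixed per library, so each comparison rests on 1 library against 1. No difference below has a replicate check, and no p-value is given.

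Flavonoids are made from phenylalanine. Phenylalanine ammonia-lyase, cinnamate 4-hydroxylase and 4-coumarate-CoA ligase supply coumaroyl-CoA, and chalcone synthase joins it with malonyl-CoA to form a chalcone. Chalcone isomerase closes the ring to a flavanone, and flavanone 3-hydroxylase turns this into a dihydroflavonol. At that point the pathway divides: flavonol synthase makes flavonols, while DFR and LDOX lead to anthocyanidins. Flavonols and related compounds absorb UV light and act as antioxidants, and in many plants the genes of these enzymes respond to light.

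The values are FPKM, which divide the fragments of a gene by its length and by the depth of the library, so that levels of different genes can be set side by side within a library. The deposited tables hold no counts. Low FPKM values lie on steps of whole fragments, from which depths were recovered and rounded. DS10:A9 seeds had 11700000 fragments, against 11300000 for the NT seeds beside them. For 35S:A9 seedlings the depth was 13400000, against 13200000 for NT seedlings, and for DS10:A4a seeds 16300000, against 16200000 for the NT seeds beside those. Between 88.4 and 96.5% of the low values used fell within 0.15 of a whole fragment. A gene of 1 kb at an FPKM of 1 then stands on 10.6 to 15.3 fragments. The recovered fragments gave each log2 fold an exact binomial (Clopper-Pearson) 95% interval, called the counting interval below, and each level an exact Poisson 95% interval. Both cover counting error of single libraries and none of the variation between plants, lines or pools. Genes of the green seedling (light-harvesting and photosystem proteins) had a summed FPKM of 7292 in 35S:A9 and 2616 in NT seedlings over the 16 that are in the A9up table, which lists genes higher in both A9 comparisons. The same 16 summed to 106 in DS10:A9 and 41.1 in NT seeds, where 8 of them were listed at 0 in NT seeds and none in DS10:A9 seeds. In the DS10:A4a comparison, 52 such genes summed to 185 in DS10:A4a and 132 in NT seeds, with 10 of them listed at 0 in DS10:A4a seeds and 14 in NT seeds. One gene carried this difference: gene_38985, of photosystem II, was at 76.1 in DS10:A4a seeds, against 21.2 in NT seeds, and without it (left out after its values were seen) the other 51 summed to 108.6 in DS10:A4a and 110.9 in NT seeds. Of the 52, 26 were higher and 26 lower with A4a. No seed storage, oleosin or late embryogenesis gene of the marker list was in the A9up table, and the 7 in the A4a tables summed to 34.1 in DS10:A4a and 23.5 in NT seeds, with 4 higher and 3 lower. The most abundant of them, the oleosin gene gene_77511, was lower, at 12.6 in DS10:A4a seeds, against 18.1 in NT seeds. The A9up table lists only genes higher with A9, so the higher sums of the 16 in both A9 comparisons follow from that choice. They cannot show whether green marker levels differ between T and NT, and the part of such levels in the results below was not tested. In such bulk libraries, a change in the number of cells of a type cannot be told apart from a change in RNA per cell.

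The descriptions fit the enzyme names unevenly. Both isomerase genes, gene_25901 (882 bases) and gene_71101 (1042 bases), are described as like chalcone-flavonone isomerase in the seedling comparison. In both seed comparisons they are described as probable chalcone-flavonone isomerase 3. In Arabidopsis this name belongs to a chalcone isomerase-like protein, and the tables give both genes the orthology of chalcone isomerase. The hydroxylase gene_819 (1405 bases) is described as flavanone 3-hydroxylase in each table. The flavonol synthase genes gene_29551 (1288 bases) and gene_8049 (1537 bases) carry that orthology in each table, and the first is also described as flavonol synthase/flavanone 3-hydroxylase. The reductase gene_26836 is the least certain: it is described as like DFR and also as like tetraketide alpha-pyrone reductase 1, an enzyme of pollen wall synthesis in Arabidopsis, and its orthology is cinnamoyl-CoA reductase. Its listed length was 1297 bases in the DS10:A9 comparison and 1509 bases in the others. The LDOX gene gene_71308 has a listed length of 4743 bases, longer than any other of the 7. Tobacco is allotetraploid, and the copies of an enzyme can share reads, so the split of a signal between gene_25901 and gene_71101, or between gene_29551 and gene_8049, is uncertain.

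**Figure D1:**
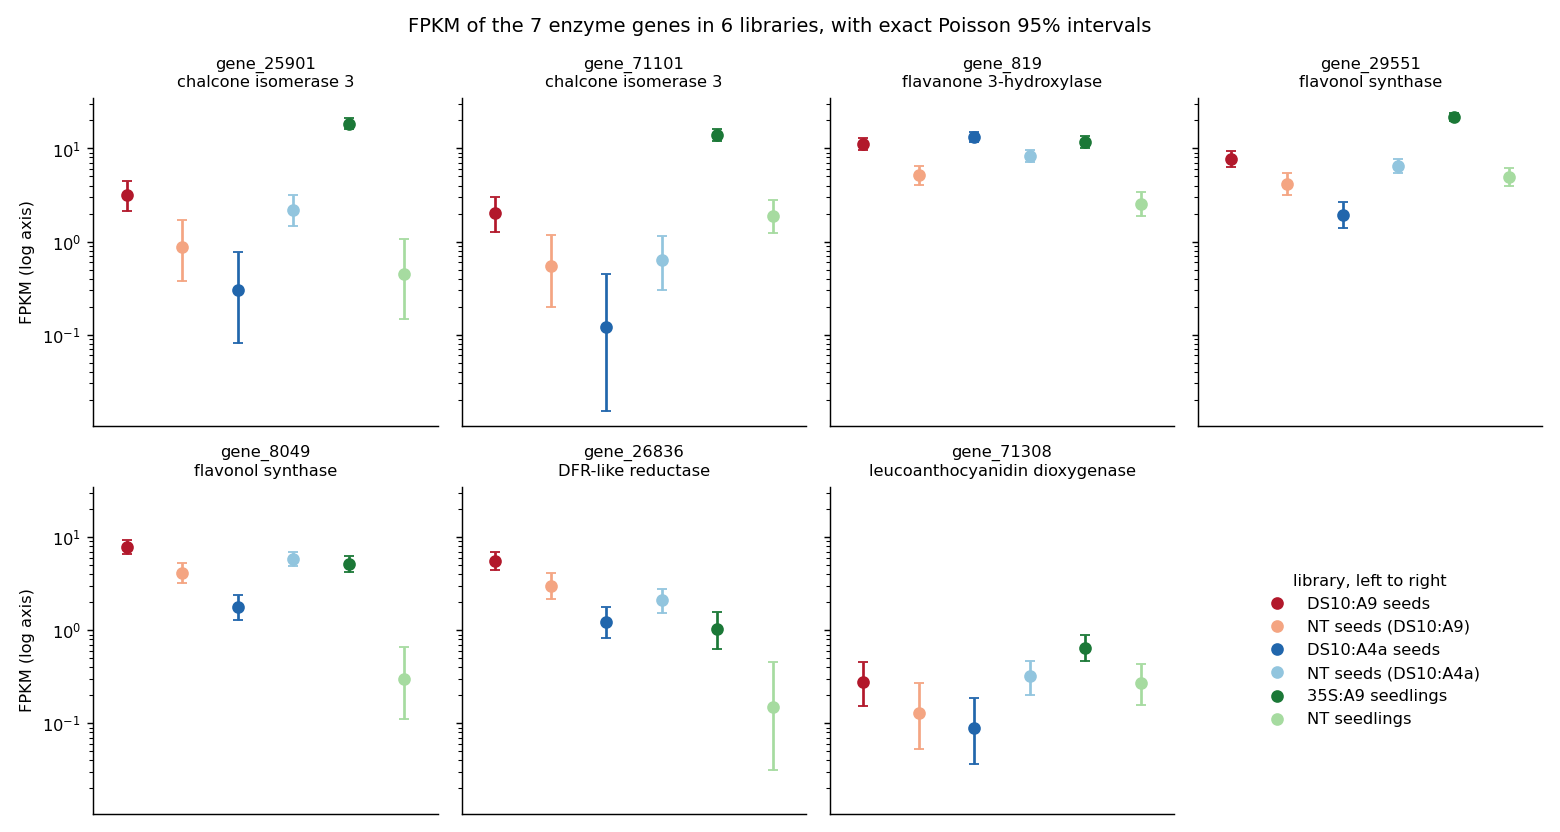
FPKM (log axis) of each of the 7 genes in the 6 libraries, 1 point per library, with exact Poisson 95% intervals of the fragments as bars. In each seed panel except that of gene_819, the DS10:A4a point is the lowest of the 4 seed points, and gene_819 is highest in DS10:A4a seeds at 13.25.

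The chalcone isomerase 3 genes had the largest folds of the 7 in both seed comparisons. The FPKM of gene_25901 was 3.15 in DS10:A9 seeds, against 0.87 in NT seeds. In DS10:A4a seeds it was 0.30, against 2.18 in their NT seeds, so the 2 transgenes stand on opposite sides of their NT libraries. In seedlings it was 18.5 with 35S:A9, against 0.45 in NT seedlings, or 207 fragments against 5. The log2 folds were 1.86 (counting interval 0.70 to 3.20) in DS10:A9 seeds, 5.36 (4.11 to 7.0) in 35S:A9 seedlings and -2.86 (-4.84 to -1.36) in DS10:A4a seeds. The seed and seedling intervals for A9 do not overlap, and the seedling fold was the largest of the 7 genes.

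Its partner gene_71101 had the same directions at lower levels in seeds. It was at 2.02 in DS10:A9 seeds, against 0.54 in NT seeds, and at 0.12 in DS10:A4a seeds, against 0.63 in their NT seeds. The DS10:A4a value stands on 2 fragments and its NT value on 10. In seedlings gene_71101 was at 13.95 with 35S:A9, against 1.89 in NT seedlings, a log2 fold of 2.88 (2.27 to 3.55). The log2 fold was 1.90 (0.56 to 3.48) in DS10:A9 seeds and -2.39 (-5.56 to -0.10) in DS10:A4a seeds, the last with an upper bound close to 0. Summed over both genes, which does not depend on how shared reads were split, the log2 folds of fragments were 1.88 (1.01 to 2.84) in DS10:A9 seeds, 3.70 (3.16 to 4.28) in 35S:A9 seedlings and -2.73 (-4.24 to -1.46) in DS10:A4a seeds.

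Flavanone 3-hydroxylase was the exception among the 7. In DS10:A4a seeds gene_819 was at 13.25, against 8.34 in their NT seeds (290 and 181 fragments), a log2 fold of 0.67 (0.40 to 0.95). It was the only one of the 7 in the table of higher genes of that comparison. In DS10:A9 seeds gene_819 was at 11.1, against 5.13 in NT seeds (1.12, 0.72 to 1.52), and in seedlings at 11.8 with 35S:A9, against 2.55 in NT seedlings (2.21, 1.74 to 2.70). The 3 transgenic libraries lay between 11.1 and 13.25 and the 3 NT libraries between 2.55 and 8.34, across tissues, transgenes and separate normalizations. T above NT in each pair is a property of the tables that list gene_819. How many other genes have such a gap was not counted. Within a seed library gene_819 had the highest level of the 7 genes, although in both NT seed libraries its Poisson interval overlapped that of gene_29551, the next in order.

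The flavonol synthase genes were alike in seeds. The FPKM of gene_29551 was 7.70 in DS10:A9 seeds, against 4.18 in NT seeds, and 1.95 in DS10:A4a seeds, against 6.43 in their NT seeds. That of gene_8049 was 7.91 in DS10:A9 seeds, against 4.13 in NT seeds, and 1.78 in DS10:A4a seeds, against 5.88 in their NT seeds. Both had a log2 fold of -1.72 in DS10:A4a seeds, with counting intervals of -2.28 to -1.20 for gene_29551 and -2.24 to -1.21 for gene_8049. In DS10:A9 seeds the log2 folds were 0.88 (0.41 to 1.36) for gene_29551 and 0.94 (0.51 to 1.37) for gene_8049. The pair together had 245 fragments in DS10:A9 seeds and 126 in NT seeds (0.91, 0.60 to 1.24), and 82 in DS10:A4a seeds and 268 in their NT seeds (-1.72, -2.09 to -1.36).

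In seedlings the pair differed. There gene_29551 was at 21.8 with 35S:A9, against 4.92 in NT seedlings (362 and 81 fragments). The other gene, gene_8049, was at 5.16 with 35S:A9, against 0.30 in NT seedlings (103 and 6 fragments). The log2 fold of gene_8049 was 4.10 (2.92 to 5.57) and that of gene_29551 2.15 (1.79 to 2.51), with intervals that do not overlap. In both seedling libraries gene_29551 had the highest level of the 7 genes, in the 35S:A9 library with a Poisson interval that overlapped that of gene_25901.

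The DFR-like gene gene_26836 had the smallest fold below 0 in the DS10:A4a comparison. It was at 1.23 in DS10:A4a seeds, against 2.09 in their NT seeds, a log2 fold of -0.76 (-1.48 to -0.08). In DS10:A9 seeds it was at 5.56, against 3.01 in NT seeds (0.89, 0.33 to 1.46). In seedlings it was at 1.02 with 35S:A9, against 0.15 in NT seedlings, and the fold of 2.77 (0.97 to 5.12) rests on 20 and 3 fragments. Its levels in the 4 seed libraries lay above those in both seedling libraries, across separate normalizations. However, the Poisson intervals of DS10:A4a seeds (0.82 to 1.77) and 35S:A9 seedlings (0.62 to 1.58) overlap.

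LDOX had the lowest level of the 7 genes in each library except the NT seedlings, where gene_26836 was lower. Only in DS10:A9 seeds was its Poisson interval apart from that of the neighbour in order. The level also depends on the listed length of 4743 bases. The FPKM of gene_71308 was 0.28 in DS10:A9 seeds, against 0.13 in NT seeds, or 15 and 7 fragments. This log2 fold of 1.11 had a counting interval of -0.33 to 2.59, the only one of the 21 member intervals that includes 0. In seedlings it was at 0.65 with 35S:A9, against 0.27 in NT seedlings (1.27, 0.41 to 2.16). In DS10:A4a seeds it was at 0.09, against 0.32 in their NT seeds, or 7 and 24 fragments (-1.83, -3.25 to -0.53).

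**Figure D2:**
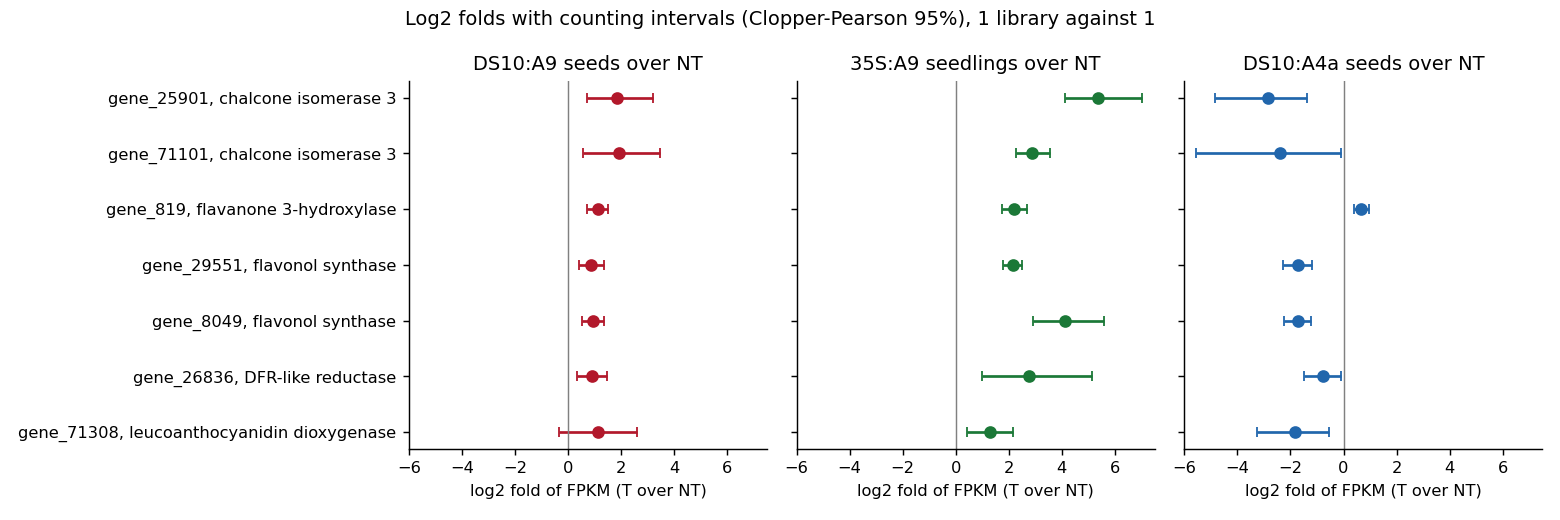
Log2 folds of the FPKM (T over NT) of the 7 genes in the 3 comparisons, with counting intervals as bars. The folds lie between 0.88 and 1.90 in DS10:A9 seeds and between 1.27 and 5.36 in 35S:A9 seedlings. In DS10:A4a seeds 6 of the 7 lie below 0, and gene_819 lies above it at 0.67.

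Across the 3 comparisons, the 7 genes were higher with A9, in seeds as in seedlings, and 6 of them were lower with A4a. In both A9 comparisons all 7 reached a log2 fold of 0.6. This is a property of the A9up table, from which the 7 come. Of its 4753 genes with both comparisons, 99.5% reached 0.6 in the seed comparison and 99.6% in that of seedlings. These shares count as reaching 0.6 the genes at an FPKM of 0 in a library, which have no calculated fold. A fold could be calculated for 2963 genes in seeds and 3538 in seedlings. The counting interval lay above 0 for 6 of the 7 in DS10:A9 seeds, against 20.8% of those genes, and for 7 of 7 in 35S:A9 seedlings, against 42.8%. The median log2 fold of the 7 was 1.11 in DS10:A9 seeds, beside 1.09 over the 2963 A9up genes with a fold, and 2.77 in 35S:A9 seedlings, beside 1.24 over 3538 genes. The 7 were also more abundant than the typical A9up gene, with a median FPKM of 5.56 in DS10:A9 seeds and 3.01 in NT seeds, while the medians of all A9up genes were 0.46 in DS10:A9 seeds and 0.11 in NT seeds, and a higher FPKM narrows the interval.

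In the DS10:A4a comparison all 7 genes are listed, but they were picked by identifier with earlier results of these data known. The shares below are thus not a blind comparison. Further A9up genes with such descriptions are outside the 7. Of those described as flavanone 3-hydroxylase or flavonol synthase, 3 were lower with A4a and 0 higher. Of those described as DFR or like it, 3 were lower and 1, gene_57177, was higher (1.58, -0.91 to 4.92). The table of lower genes held 6 of the 7, against 49.6% of the 2618 A9up genes in either A4a table and 54.0% of the 29629 genes in either A4a table. The table of higher genes held 1 of the 7, against 50.4% of these A9up genes. The counting interval lay below 0 for these 6 genes, against 11.7% of the genes in the A4a tables, and above 0 for gene_819, against 8.93%. Here too the 7 were more abundant than the typical gene, which narrows the interval. Their median FPKM was 1.23 in DS10:A4a seeds and 2.18 in NT seeds. The medians of all genes in these tables were 0.26 in DS10:A4a seeds and 0.27 in NT seeds. The median log2 fold of the 7 was -1.72, beside -0.57 over 20595 genes of these tables with a fold. Without gene_819, the fragments of the other 6 summed to 124 in DS10:A4a and 380 in NT seeds, a log2 fold of -1.63 (-1.93 to -1.33). With it the sums were 413 and 561 (-0.45, -0.64 to -0.27). The share of gene_819 in the summed FPKM of the 7 was 70.8% in DS10:A4a seeds, against 32.2% in their NT seeds. In DS10:A9 seeds it was 29.5%, against 28.5% in NT seeds, and in seedlings 16.2% with 35S:A9, against 24.2% in NT seedlings.

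**Figure D3:**
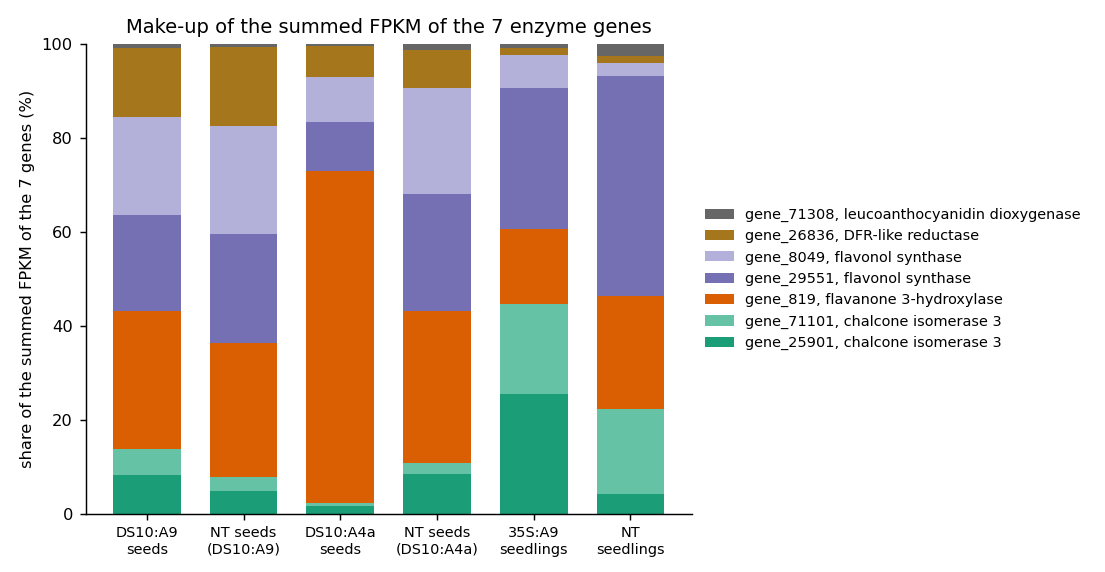
Share of each gene in the summed FPKM of the 7 (percent, stacked from 0 to 100) in the 6 libraries. The share of gene_819 is 70.8% in DS10:A4a seeds and between 16.2 and 32.2% in the other 5 libraries.

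Ratios between 2 genes within 1 library do not depend on how libraries were scaled. The values had been seen when these ratios were chosen. The flavonol synthase ratio (gene_29551 over gene_8049) lay between 0.973 and 1.10 in the 4 seed libraries, with counting intervals that include 1. It was 4.22 in 35S:A9 seedlings, against 16.4 in NT seedlings. On the log2 scale this was 2.08 (1.76 to 2.41) in 35S:A9 seedlings and 4.04 (2.83 to 5.51) in NT seedlings, so the seed and seedling intervals do not overlap. The isomerase ratio (gene_25901 over gene_71101) was above 1 in the 4 seed libraries, at 1.56 in DS10:A9 seeds, 1.61 in their NT seeds, 2.50 in DS10:A4a seeds and 3.46 in their NT seeds, but only the last had an interval that excludes 1. In seedlings it was 1.33 with 35S:A9, against 0.238 in NT seedlings, and the log2 values of 0.41 (0.11 to 0.70) with 35S:A9 and -2.07 (-3.81 to -0.66) in NT seedlings lie on opposite sides of 0. The ratio of gene_819 to gene_29551 was 6.79 in DS10:A4a seeds, against 1.30 in their NT seeds, with log2 values of 2.76 (2.28 to 3.28) in DS10:A4a seeds and 0.38 (0.03 to 0.71) in these NT seeds. In DS10:A9 seeds it was 1.44, against 1.23 in NT seeds, and in seedlings 0.540 with 35S:A9, against 0.518 in NT seedlings, where the intervals of T and NT overlap. The ratio of gene_819 to gene_8049 was also higher in DS10:A4a seeds, at 7.44, against 1.42 in their NT seeds, with log2 values of 2.90 (2.42 to 3.39) in DS10:A4a seeds and 0.50 (0.18 to 0.83) in these NT seeds. In seedlings, however, it was 2.28 with 35S:A9, against 8.5 in NT seedlings, where gene_8049 stands on 6 fragments, and the intervals of 0.84 to 1.54 with 35S:A9 and 1.84 to 4.59 in NT seedlings on the log2 scale do not overlap. That ratio was thus not highest in DS10:A4a seeds.

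**Figure D4:**
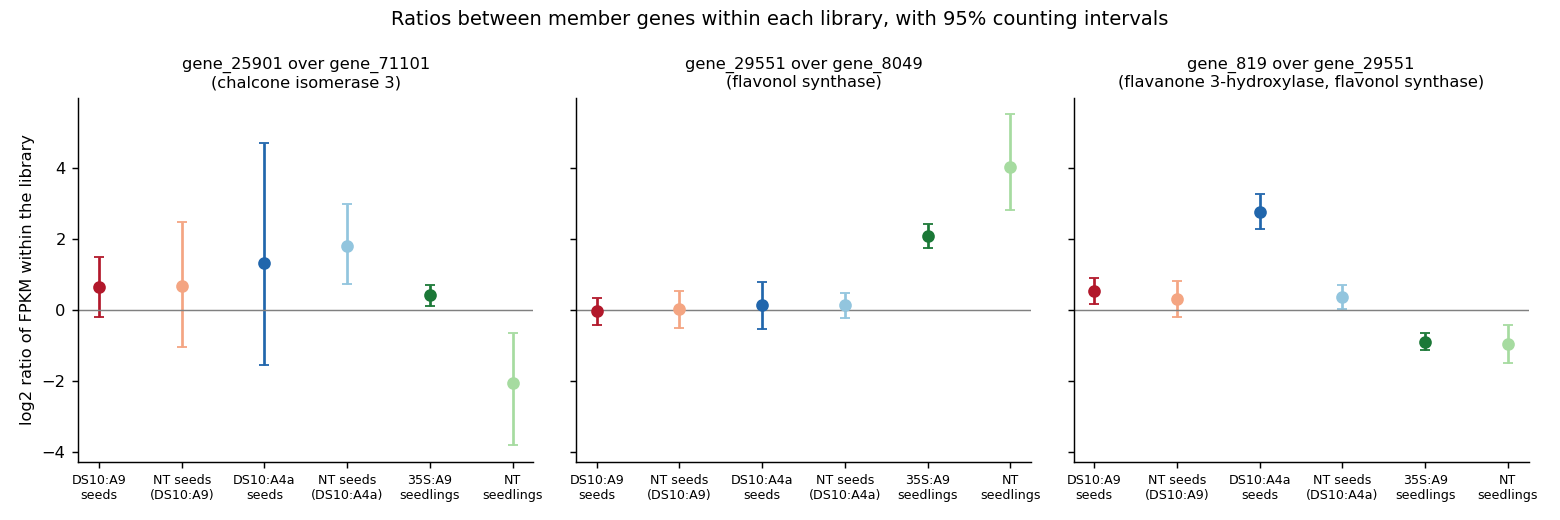
Log2 ratio of the FPKM of 2 genes within each of the 6 libraries, with 95% counting intervals as bars. The flavonol synthase genes are near a log2 ratio of 0 in all 4 seed libraries and at 2.08 and 4.04 in 35S:A9 and NT seedlings, and the ratio of gene_819 to gene_29551 stands highest in DS10:A4a seeds at 2.76.

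The 2 NT seed libraries are the only repeat of a condition, and they differed for these genes. Their values come from tables that were normalized separately. In the NT seeds of the DS10:A4a comparison, 6 of the 7 genes were higher than in those of the DS10:A9 comparison, with a median log2 ratio of 0.62 over the 7. The ratio was 1.33 (0.17 to 2.68) for gene_25901 and 0.70 (0.30 to 1.09) for gene_819, and gene_26836 was the exception at -0.53 (-1.15 to 0.10). The shift was not particular to the 7: over the 1437 A9up genes with an FPKM above 0 in both NT libraries, the median was 0.49 and 69.0% of genes were above 0, and over the 237 with an FPKM of 1 or more in both it was 0.35. All of these are A9up genes, listed for a high ratio over the NT seeds of DS10:A9, which favours low values in that library. They are also in an A4a table. Listing as lower with A4a, as for 6 of the 7, favours high values in the NT seeds of DS10:A4a, and listing as higher favours low ones. How much of the shift comes from these selections was not tested. Set over the other NT seed library, DS10:A9 seeds were higher by a log2 fold of 0.6 or more for 2 of the 7, gene_71101 (1.68, 0.55 to 2.91) and gene_26836 (1.41, 0.88 to 1.96), against 55.1% of the 2618 genes that the A9up table shares with the A4a tables. The other 5 were at 0.53 for gene_25901, 0.42 for gene_819, 0.26 for gene_29551, 0.43 for gene_8049 and -0.19 for gene_71308. For these 5 the side of the 0.6 threshold thus depended on the NT library. The 55.1% is not a like comparison, because 50.4% of the 2618 genes are listed as higher with A4a, against 1 of the 7. That listing favours low values in this NT library. Set over the other NT seed library, DS10:A4a seeds were lower by 0.5 or more on the log2 scale for 6 of the 7, against 15.5% of those genes. This share is held down, because a gene at 0 in that NT library cannot be lower than it. It is also held down by the 50.4% of the 2618 genes listed as higher with A4a. Only 1437 of the 2618 were above 0 in both NT libraries, as all 7 were, and the selection of A9up genes favours low values there. The folds of the 6 lay between -2.17 for gene_71101 and -0.53 for gene_71308, whose interval of -2.27 to 1.21 includes 0. The intervals of gene_25901 (-1.54, -3.71 to 0.37) and gene_71101 (-5.46 to 0.37) also include 0. For gene_819 the fold was 1.37 (1.00 to 1.74), above 0 as with its own NT library.

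Of the wider pathway, 74 further genes matched an enzyme name, from phenylalanine ammonia-lyase to the 3-O-glucosyltransferases that attach glucose to anthocyanidins and flavonols. With A4a, 49 of them were lower and 21 higher, and among the 49 lower genes 21 had a counting interval below 0, while 6 of the 21 higher ones had one above 0. The lower genes were thus 70.0% of the 70 listed, beside 54.0% of all genes in these tables. Their median log2 fold was -1.01 over the 48 with a fold. The A9up table held 29 of the 74, and 11 of these had counting intervals above 0 in both A9 comparisons. Of the 29, 20 were lower with A4a and 5 were higher.

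Upstream of the 7, phenylalanine ammonia-lyase, the entry enzyme, was lower with A4a in 6 of its 7 genes, and the 7th was not listed. Of the 6, 3 stood on 3 fragments or fewer in both libraries of that comparison, and 3 had an interval below 0. Of these, gene_65313 was at 4.48 in DS10:A4a seeds, against 6.81 in their NT seeds (-0.60, -0.89 to -0.33). It was at 63.6 in 35S:A9 seedlings, against 20.9 in NT seedlings (1.60, 1.48 to 1.73), and at 11.4 in DS10:A9 seeds, against 7.58 in NT seeds (0.59, 0.35 to 0.85). The only gene of cinnamate 4-hydroxylase, gene_33762, was at 12.5 in DS10:A4a seeds, against 19.8 in NT seeds (-0.67, -0.86 to -0.48). The genes of 4-coumarate-CoA ligase, whose family includes many ligase-like proteins of other roles, were mixed, with 6 higher (3 with an interval above 0) and 4 lower (2 with an interval below 0). Of those, gene_83788 (described as ligase-like 10) was at 3.44 in DS10:A4a seeds, against 1.76 in NT seeds (0.97, 0.49 to 1.46). In 35S:A9 seedlings gene_81659 (ligase 2) was at 8.42, against 5.34 in NT seedlings (0.66, 0.16 to 1.16). The 4 lower genes are described as ligase 1 or 2 or like it. Of the 6 higher, gene_81659 and gene_84026 (ligase 1) also carry such names, and the others are ligase-like 9 or 10. The 2 lower genes with an interval below 0 are of ligase 2 and were named after their values were seen. They were gene_47701 (-1.65, -3.41 to -0.06) and gene_69898 (-1.87, -3.97 to -0.27). Their log2 folds were 5.66 and 5.23 in 35S:A9 seedlings, and their intervals in DS10:A9 seeds include 0.

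Chalcone synthase, the step just before the 7, was close to them. Of its 9 genes 8 were lower with A4a, 4 of these with intervals below 0, and 5 of the 8 were A9up. In the mean over the 4 libraries of the A9up table the most abundant was gene_77491, although its near copy gene_5201 was higher in both seed libraries. It was at 20.8 in 35S:A9 seedlings, against 0.85 in NT seedlings (4.61, 3.87 to 5.46), and at 28.5 in DS10:A9 seeds, against 10.98 in NT seeds (1.38, 1.12 to 1.65). In DS10:A4a seeds gene_77491 was at 4.57, against 15.6 in NT seeds (-1.77, -2.11 to -1.44), and gene_5201 had a log2 fold of -1.80 (-2.14 to -1.46). These folds with A4a lie beside those of the flavonol synthase genes at -1.72.

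Other genes of the same steps as the 7 were lower or mixed. The chalcone isomerase genes gene_48483 and gene_30596 carry the plain enzyme name and were not in the A9up table. In DS10:A4a seeds gene_48483 was at 5.35, against 9.91 in NT seeds (-0.89, -1.28 to -0.50), and gene_30596 at 5.28, against 9.55 in NT seeds (-0.85, -1.27 to -0.44). Their folds were smaller in size than that of gene_25901, whose interval ends at -1.36, beyond the lower bounds of both. Among the 13 further genes described as flavanone 3-hydroxylase or flavonol synthase, 8 were lower with A4a and 5 higher. The 2 higher ones with an interval above 0, named after their values were seen, were gene_61580, also described as like naringenin 3-dioxygenase, at 3.10 in DS10:A4a seeds, against 2.0 in NT seeds (0.63, 0.03 to 1.25), and the putative inactive flavonol synthase 2 gene gene_43215 at 2.31, against 1.34 in NT seeds (0.79, 0.05 to 1.54). Another putative inactive flavonol synthase 2 gene, gene_43221, was at 4.91 in DS10:A4a seeds, against 7.24 in NT seeds (-0.56, -0.80 to -0.32). In the A9up table the most abundant further gene of this class, gene_47345, which is also described as like LDOX, was at 2.14 in 35S:A9 seedlings, against 1.10 in NT seedlings (0.96, 0.23 to 1.71), and stands on 1 fragment or none in the seed libraries.

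Further along, flavonoid 3′-hydroxylase, which adds a hydroxyl group to the B ring, was lower with A4a in 5 of 6 genes, 2 of them with an interval below 0 and the others on 4 fragments or fewer in each library. Of these, gene_44182 was at 1.61 in DS10:A4a seeds, against 3.38 in NT seeds (-1.07, -1.59 to -0.56). The sixth, gene_55448, was higher, at 0.47 in DS10:A4a seeds, against 0.10 in NT seeds (2.23, 0.37 to 4.65). Of the 5 further genes described as DFR or like it, 4 were lower and 1 was higher with A4a, and no interval lay on one side of 0. The most abundant in the A4a tables, gene_22739, was at 0.26 in DS10:A4a seeds, against 0.67 in NT seeds (-1.37, -2.99 to 0.12), and gene_37943 was at 2.97 in 35S:A9 seedlings, against 0.72 in NT seedlings (2.04, 1.23 to 2.98). The further LDOX-like gene gene_9421 stood on 3 fragments or fewer in each library. Of 18 glucosyltransferase genes 11 were lower and 7 higher with A4a, 6 of the lower ones and none of the higher ones with an interval on that side of 0. For example, gene_10125 was at 3.70 in DS10:A4a seeds, against 5.53 in NT seeds (-0.58, -0.92 to -0.23). The A9up gene gene_35956 was at 1.56 in DS10:A4a seeds, against 4.03 in NT seeds (-1.37, -1.94 to -0.83), and its log2 fold was 4.36 (2.72 to 6.65) in 35S:A9 seedlings and 0.85 (0.44 to 1.27) in DS10:A9 seeds. No gene matched leucoanthocyanidin reductase or anthocyanidin reductase.

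**Figure D5:**
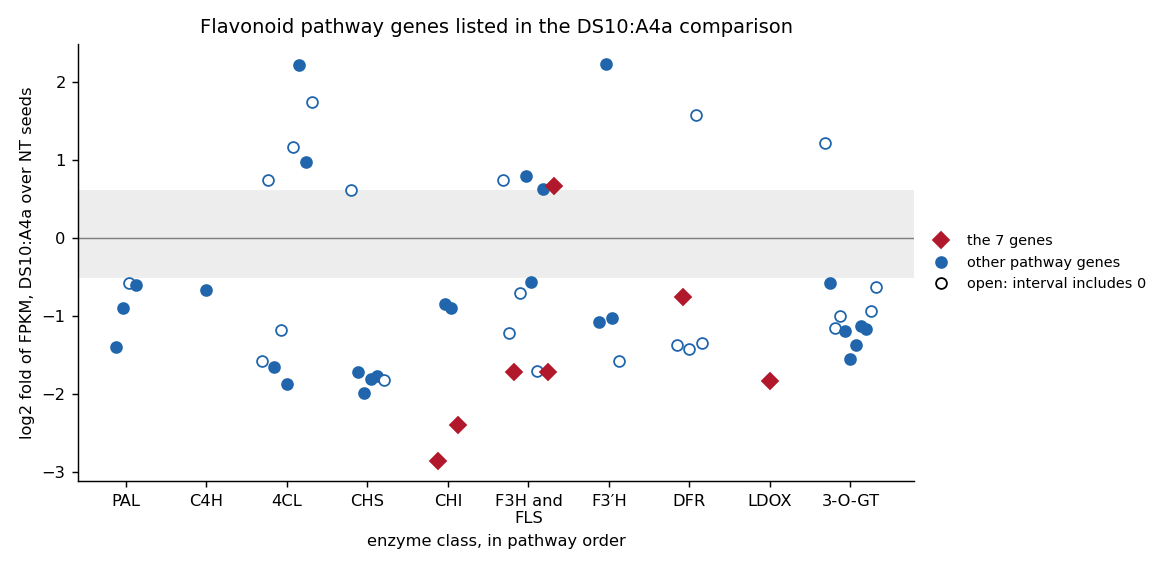
Log2 fold of FPKM (DS10:A4a over NT seeds) of the flavonoid pathway genes in the A4a tables, by enzyme class in pathway order (diamonds, the 7 genes; circles, others; open symbols, counting interval includes 0; 3-O-GT, 3-O-glucosyltransferases; other abbreviations, the enzymes named in the text). The grey band holds no gene because the tables start at 0.6 and -0.5, and 22 genes listed at 0 in a library have no fold and are not drawn. Of the filled symbols most lie below 0, with gene_819 above it.

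A list of known regulators and transporters of the pathway was mixed, with 12 of 22 genes lower and 9 higher with A4a. Most of the 22 are described as like TRANSPARENT TESTA 12, a transporter of flavonoids into the vacuole of Arabidopsis seed coat cells, and of these gene_77361 was at 6.35 in DS10:A4a seeds, against 9.23 in NT seeds (-0.54, -0.80 to -0.28), while gene_7339 was at 51.0 in DS10:A9 seeds, against 32.3 in NT seeds (0.66, 0.44 to 0.88). Others of this description were higher with A4a, named after their values were seen: gene_27614 was at 4.53 in DS10:A4a seeds, against 0.76 in NT seeds (2.58, 1.92 to 3.24), and gene_15544 at 4.75, against 0.87 in NT seeds (2.45, 1.73 to 3.23). Both are A9up genes, and like gene_819 they were higher in all 3 comparisons. A further one, gene_15547, had a log2 fold of 3.37 (0.50 to 8.75) from 10 fragments in DS10:A4a seeds and 1 in NT seeds. The MYB12-like and HY5 genes, also named after their values were seen, were lower with A4a. The MYB12-like gene gene_14792, named after a factor that activates flavonol genes in Arabidopsis, was at 0.39 in DS10:A4a seeds, against 1.08 in NT seeds (-1.47, -2.77 to -0.34), and at 3.49 in DS10:A9 seeds, against 1.30 in NT seeds (1.42, 0.68 to 2.22). In seedlings it stood on 11 fragments with 35S:A9 and 7 in NT (0.62, -0.86 to 2.24). Of 3 genes for HY5, a light signalling factor, gene_57694 had a log2 fold of -1.32 (-1.90 to -0.77) and gene_78854 of -1.01 (-1.54 to -0.47) in DS10:A4a seeds, while the interval of gene_57696 (-0.94, -2.20 to 0.24) includes 0. The first of these is not in the A9up table.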

How the data were processed

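The authors sequenced paired-end reads, mapped them to the tobacco genome with HISAT 0.1.6 and, after transcript assembly (StringTie 1.04 in the submitters' processing notes), to a combined transcriptome with Bowtie2 2.2.5, and computed FPKM with RSEM 1.2.12. The deposited tables list FPKM for genes past a log2 threshold of 0.6 or -0.5, with an FPKM of 0 written as 0.01. The genes that did not pass are not listed, so no enrichment test was run. The authors' log2 ratios and Poisson p-values in these tables were not used. Of 4755 A9up identifiers, 4753 had both comparisons. Each expression column was used.

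Log2 folds were calculated anew from FPKM (Python 3.11.15, NumPy 2.4.6, SciPy 1.17.1, pandas 2.3.3). Fragments were recovered from FPKM steps, length (less 65 bases in both seed comparisons and 45 in that of seedlings) and depth. Tested on simulated data of 4744 genes for each A9 comparison and 29526 for DS10:A4a, depths were within 0.383% of the input, and at least 99.99% of the fragments of genes at an FPKM of 0.1 or more were recovered. The simulated data held whole fragments made by the same steps that the recovery assumes. Reads shared between copies were not simulated, so the test does not cover them. Which NT seed sample belongs to which comparison is not in the labels, so each NT column was kept with its own table. The members and gene lists were chosen with earlier results of these data known. Beside the 7 genes, the most abundant gene of each enzyme class in the A4a tables and in the A9up table was named. Genes were put in classes by their deposited descriptions. Alternatives were pseudocounts of 0.1 and 1, a minimum FPKM of 1, thresholds of 1 and -1, calls by counting interval, the whole transcript length, stricter class matching and the other NT seed library. Identifiers and accessions of the 7 matched no entry of the reference gene table, and no sequence is shown.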

Additional observations from a re-analysis of the deposited data

How the results depend on the processing

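Of the 7 genes higher in DS10:A9 seeds, 4 passed a threshold of 1 and 2 passed 0.6 over the other NT seed library (an alternative chosen after seeing the data), and over that library their median log2 fold was 0.43 and gene_71308 turned to -0.19. The tables of that NT library were normalized separately. Counts of the 7 in 35S:A9 seedlings (6 or 7) and lower in DS10:A4a seeds (4 to 6) stayed within 1.5 times under the alternatives run. Median log2 folds in DS10:A4a seeds lay between -1.72 and -0.54. Of the single folds, 6 lay outside their counting interval with a pseudocount of 1 and 7 over the other NT seed library, all in the same direction. Of the other 74 pathway genes, those in the A9up table numbered 12 at an FPKM of 1 or more, 16 at a threshold of 1 and 11 by counting interval. Those higher with A4a numbered 4 at an FPKM of 1 or more and 6 by counting interval, and those lower with A4a 19 and 21. No paired analysis was possible because each comparison has 1 library per condition. Leaving out a library was not possible for the same reason. Folds on under 10 fragments in a library are limited by depth. This holds in seeds for gene_25901, gene_71101 and gene_71308, and in NT seedlings for gene_25901, gene_8049 and gene_26836. The fold of gene_25901 in DS10:A4a seeds rests on 4 and 29 fragments.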

Other observations

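Outside the flavonoid pathway, genes with folds like those of the 7 were sought among A9up genes that are in an A4a table, have a described product and reach an FPKM of 1 in a library of each pair. Likeness was the distance to the median of the 7 over the 3 log2 ratios of FPKM + 1, which was 0.80 in DS10:A9 seeds, 1.94 in 35S:A9 seedlings and -0.54 in DS10:A4a seeds. Of the 5 nearest genes, 2 had counting intervals on one side of 0 in both A9 comparisons. A fatty acid omega-hydroxylase gene of the cytochrome P450 86A family, gene_72767 (distance 0.30), was at 17.6 in 35S:A9 seedlings, against 3.31 in NT seedlings, with log2 folds of 2.41 (2.09 to 2.74) there, 0.88 (0.23 to 1.60) in DS10:A9 seeds and -1.15 (-1.94 to -0.42) in DS10:A4a seeds. A methyl jasmonate esterase gene, gene_36583 (0.49), was at 10.1 in DS10:A9 seeds, against 3.72 in NT seeds, and at 0.61 in DS10:A4a seeds, against 1.28 in their NT seeds (-1.07, -2.33 to 0.07). The other 3, gene_19485 (like STICHEL-like 3, distance 0.06), gene_59341 (a putative ribonuclease H protein, 0.17) and gene_64888 (like 60S ribosomal protein L13-2, 0.54), each stand on 1 fragment in the NT library beside DS10:A9 seeds. Of the 7 genes themselves, gene_71101 was nearest to this median (0.46) and gene_25901 farthest (1.99).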
